A study of Homo sapiens with 2 samples.

Results

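The set comprises 7 neighbouring genes of chromosome 9p21 in 2 cultures labelled as HCT116 cells: FOCAD, HACD4, KLHL9, MIR31HG, MTAP, CDKN2A and CDKN2B, in the order in which they follow each other from the telomeric end. They were chosen for their levels on these same arrays, so those levels are a description and are not tested. Of 34127 distinct probes other than controls, which cover 20830 named genes, 10 read the 7 genes. Of the 10, only 1 for MTAP and 1 for CDKN2A were among the 20291 probes of the authors' table of detected probes, and the other 8 were found in the scanner files through their transcript accession.

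HCT116 is a human cell line of epithelial origin from a colorectal carcinoma. One culture was given a mimic of miR-204-5p, a microRNA, and the other a negative control RNA, both with the same lipid reagent, and total RNA was taken after 48 h. A single-colour Agilent array was run for each condition, 1 apiece, so no difference carries a replicate error, none was tested, and the transfected RNA cannot be told apart from any other difference between the cultures. RNA was measured, and DNA of the region was not.

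The 9p21 segment is known as one of the regions most often lost in human tumours and tumour cell lines. CDKN2A encodes, from separate first exons, p16INK4a, which inhibits the cyclin D kinases CDK4 and CDK6 and so keeps RB active, and p14ARF, which restrains the ubiquitin ligase MDM2. CDKN2B encodes the related inhibitor p15INK4b. MTAP, next to them, encodes the phosphorylase that recycles methylthioadenosine, a by-product of polyamine synthesis, into the methionine salvage pathway, and it is often lost together with CDKN2A. KLHL9 is a substrate adaptor of a cullin-3 ubiquitin ligase, FOCAD encodes focadhesin, HACD4 encodes a dehydratase of very-long-chain fatty acid elongation, and MIR31HG is the long noncoding host RNA of miR-31. A cluster of type I interferon genes lies between HACD4 and MTAP.

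The microRNA introduced and the one hosted in the region are shown to make plain that they have different seeds. The sequences are RefSeq mature sequences (GRCh38.p14), 5′ to 3′, with the seed (bases 2 to 8) in capitals. The gene of miR-204-5p lies on the same chromosome, outside the segment.
hsa-miR-204-5p: uUCCCUUUgucauccuaugccu
hsa-miR-31-5p: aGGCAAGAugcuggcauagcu
No level of either mature microRNA was measured on these arrays.

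The start regions of 3 genes are shown because these genes lie side by side and had different patterns. MTAP and CDKN2A were far brighter on the mimic array than on the control array, and CDKN2B was at background on both. Each window runs from 250 bases before to 50 after a RefSeq start (GRCh38.p14), 5′ to 3′, with every CG dinucleotide in capitals. CDKN2A has a window for each of its first exons.
MTAP, chr9:21802386-21802685, + strand: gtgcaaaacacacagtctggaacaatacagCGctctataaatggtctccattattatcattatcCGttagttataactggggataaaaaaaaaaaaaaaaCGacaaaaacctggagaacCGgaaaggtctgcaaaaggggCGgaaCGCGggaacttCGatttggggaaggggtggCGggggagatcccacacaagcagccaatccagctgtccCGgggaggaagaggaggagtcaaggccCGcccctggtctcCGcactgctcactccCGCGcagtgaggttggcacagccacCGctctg
CDKN2A, first exon of the p16INK4a transcript, chr9:21974808-21975107, - strand: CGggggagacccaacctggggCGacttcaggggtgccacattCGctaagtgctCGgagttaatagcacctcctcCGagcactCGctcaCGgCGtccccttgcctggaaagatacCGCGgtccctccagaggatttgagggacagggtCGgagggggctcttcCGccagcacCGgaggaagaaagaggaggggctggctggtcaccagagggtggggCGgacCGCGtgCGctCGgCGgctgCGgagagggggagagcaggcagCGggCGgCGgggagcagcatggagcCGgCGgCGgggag
CDKN2A, first exon of the p14ARF transcript, chr9:21995275-21995574, - strand: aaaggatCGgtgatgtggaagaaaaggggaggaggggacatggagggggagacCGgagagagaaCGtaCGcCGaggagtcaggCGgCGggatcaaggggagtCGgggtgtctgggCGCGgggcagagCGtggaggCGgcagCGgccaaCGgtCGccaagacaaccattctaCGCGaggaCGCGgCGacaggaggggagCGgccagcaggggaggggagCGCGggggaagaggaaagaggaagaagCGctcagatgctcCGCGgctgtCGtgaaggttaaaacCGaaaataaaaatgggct
CDKN2B, chr9:22009256-22009555, - strand: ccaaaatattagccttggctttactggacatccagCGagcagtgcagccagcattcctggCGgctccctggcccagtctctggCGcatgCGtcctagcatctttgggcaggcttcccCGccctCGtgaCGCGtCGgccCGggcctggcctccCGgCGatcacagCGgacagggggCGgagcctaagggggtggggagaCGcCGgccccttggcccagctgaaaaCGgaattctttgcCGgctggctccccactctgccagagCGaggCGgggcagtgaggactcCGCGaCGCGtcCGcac
The MTAP window held 15 CG dinucleotides, those of CDKN2A 26 (p16INK4a) and 28 (p14ARF), and that of CDKN2B 25. Among 35116 windows of the same length, 48.9% had at least 15, 30.1% at least 26 and 26.2% at least 28, so none of the windows stood at an extreme of this count. The CG-richest windows of the set were those of FOCAD and MIR31HG, with 39 each, a count reached by 8.71% of all windows. The letters TATAAA, searched on both strands, were in the MTAP window and in no other window of the set, and 11.5% of all windows held them. These are letter counts, and methylation was not measured.

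The arrays differed widely beyond this region. Of 14 epithelial marker genes, 8 exceeded 2-fold in favour of the mimic array and 0 the reverse, with a summed scaled intensity of 245475 on the mimic array against 44475 in the control. The colorectal transcription factor CDX2 had a deposited intensity of 1551 on the mimic array against 4.16 in the control, and CDH1, which encodes E-cadherin, had 13991 against 29.6. CDH17 and VIL1, also listed as intestinal markers, were near the negative-control spots on both arrays, with 5.59 and 7.32 on the mimic array against 3.66 and 4.36 on the control array. Of all probes, 12.7% were 2-fold higher and 17.4% lower. Of 13 mesenchymal markers 10 were at least 2-fold lower and 2 higher. Their summed scaled intensity was 10914 on the mimic array against 201970 in the control, of which VIM alone made up 163211. Of the 8 that were at least 1.5-fold lower in the authors' table, however, 7 rested on recomputed probes, whose deposited mimic intensity equals the control intensity times the deposited fold. Without such probes 2 of the mesenchymal genes in that table were higher and 1 lower, with a median log2 difference of 1.81 in place of -1.89. All 7 genes so left out were lower, so leaving them out could only raise the median, which then rests on few genes. Outside that table, ZEB2 had a deposited intensity of 35.4 on the mimic array against 506 in the control, and THY1 16.3 against 35.9. COL3A1, also outside it, had 23.3 against 16.8. Blood cell markers summed to 5589 against 4247 and endothelial markers to 548 against 808, sums that hide genes of unlike direction. Of 4 blood cell markers, 1 was at least 2-fold higher (CD79A, scaled intensity 5065 against 2431) and 1 lower (CD68, 432 against 1684, a recomputed probe). Of 3 endothelial markers, 0 were at least 2-fold higher and 1 lower (PECAM1, 6.66 against 51.6). Among the listed intestinal markers, CDX2 was thus at or near background on the control array alone, and CDH17 and VIL1 on both. Whether these genes mark the labelled line was not tested. Since these are bulk samples, fewer cells of a type and less RNA per cell cannot be told apart. Whether the arrays hold cells of the same line was not tested, nor was the part of such a difference in the results below, and each fold compares these 2 arrays as labelled.

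Background was taken from the 153 negative-control spots of each array. They lay between 5.19 and 16.2 on the mimic array (median 5.59, 95th percentile 7.08) and between 3.34 and 9.18 on the control array (median 3.60, 95th percentile 4.39). A second reference is the lowest intensity among probes in the authors' table, 26.2 on the mimic array against 17.0 in the control. Intensities below are as deposited, in arbitrary units. Folds are of scaled intensity, mimic over control, after each array was set to its 75th percentile. Where the control value was under 17.0, the fold is given as at least the ratio to that level. Levels are set side by side only within a probe, since probes differ in response.

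Of the 7 genes, 5 were bright on the mimic array and far dimmer on the control array, and the other 2 were at background on both. By probes, 8 of 10 exceeded the 95th percentile of the negative-control spots on the mimic array against 6 of 10 in the control, so that 2 of 10 did so on the mimic array alone, against 2.45% of all probes. Against the lowest intensity of the authors' table the counts were 8 and 3 of 10, the 3 being probes of KLHL9, MTAP and CDKN2A, with 5 of 10 on the mimic array alone, against 3.19% of all probes. Against the highest negative-control spot, 4 of 10 were above on the mimic array alone, and 2.48% of all probes. All 8 bright probes were 10-fold or more higher on the mimic array, against 2.06% of all probes. None of the 10 was 10-fold lower, against 2.48% of all probes. These counts follow from how the genes were chosen.

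**Figure D1:**
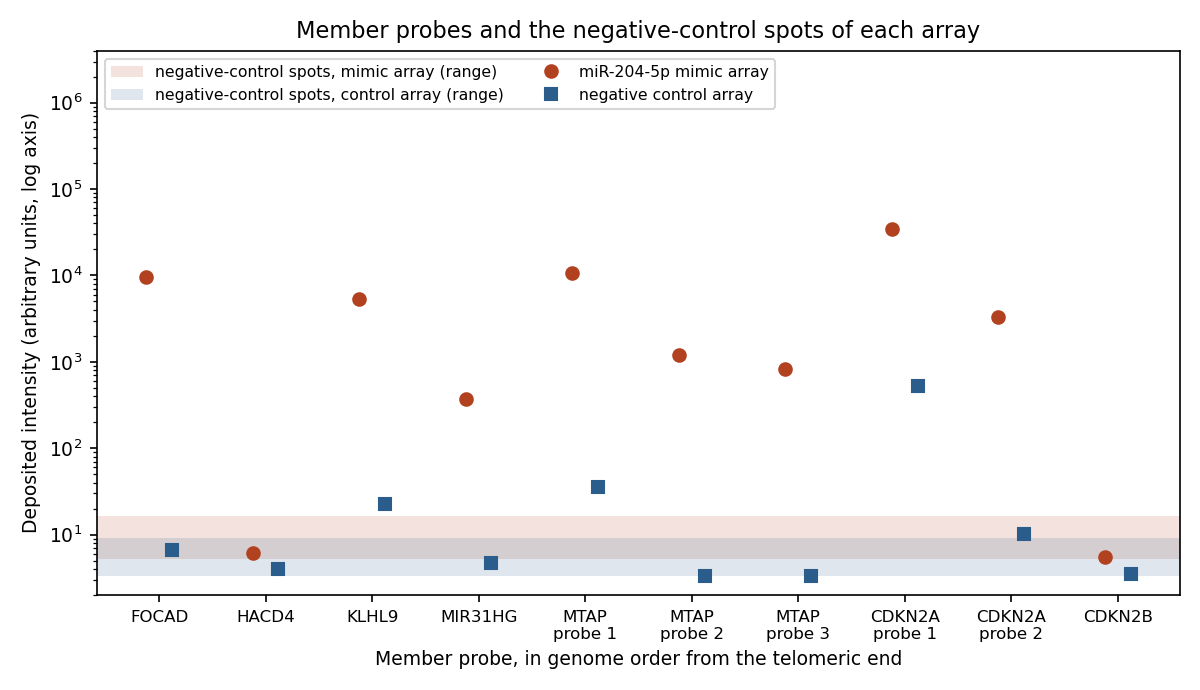
Deposited intensity (arbitrary units, log axis) of the 10 member probes on the mimic array (circles) and the control array (squares), with the range of each array's 153 negative-control spots shaded. The 8 probes of FOCAD, KLHL9, MIR31HG, MTAP and CDKN2A lie between 371 and 34530 on the mimic array and between 3.34 and 523 on the control array, and HACD4 and CDKN2B lie within the shaded ranges on both.

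CDKN2A, the cell cycle inhibitor locus, was read by a pair of probes. The probe in the authors' table, designed on NM_058197, had an intensity of 34530 on the mimic array against 523 in the control. It lies on the minus strand of chromosome 9 from 21968039 to 21968098 by the coordinates of the authors' table, for which the sources used here give no build. That table does not say which exon it covers or whether it tells the p16INK4a and p14ARF transcripts apart. Its control value was 145 times the negative-control median and exceeded all 153 negative-control spots, so a signal remained on the control array at this probe. The fold was 43.3. The other CDKN2A probe, designed on NM_000077, the p16INK4a transcript, had 3262 on the mimic array against 10.2 on the control array. That control value exceeded the highest negative-control spot by little, and the fold was at least 125. The pair thus had 1 direction and differed in size, with log2 differences of 5.44 and 7.71.

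CDKN2B, which encodes the related inhibitor p15INK4b, was at background on both arrays. Its probe had 5.54 on the mimic array against 3.52 in the control, above 71 of 153 and 62 of 153 negative-control spots. CDKN2B-AS1, the antisense RNA of the locus also called ANRIL, had 6.94 against 4.18, under the 95th percentile of the negative-control spots on each array. No fold is given for either.

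MTAP was read by 3 probes, all designed on NM_002451. The brightest, on the plus strand from 21865830 to 21865889 by the same coordinates, had 10565 on the mimic array against 35.2 in the control, and was 197-fold higher. The other 2 had 1204 and 821 on the mimic array, against 3.34 and 3.36 on the control array. These control values were among the lowest readings on the array, above 5 and 12 of the 153 negative-control spots. Their folds were at least 46.3 and at least 31.6. The sizes at these 2 probes are therefore only bounds. In the authors' deposited table the normalized fold was 373 for the MTAP probe and 65.4 for the CDKN2A probe, both marked Up.

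FOCAD had an intensity of 9509 on the mimic array against 6.64 in the control. The control value exceeded 152 of the 153 negative-control spots but stayed under the highest, and the fold was at least 366. KLHL9, the ubiquitin ligase adaptor, had 5310 on the mimic array against 22.6 on the control array, 6.29 times the negative-control median. It was 154-fold higher. MIR31HG, the host RNA of miR-31, had 371 on the mimic array against 4.72 on the control array. That control value exceeded 150 of 153 negative-control spots and was under the 99th percentile, and the fold was at least 14.3. HACD4, between FOCAD and KLHL9, had 6.19 on the mimic array against 3.99 in the control, above 124 and 125 of 153 negative-control spots. It was thus at background on both arrays, and its fold is not given.

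Among the log2 differences of all 34127 probes, the 8 bright member probes ranked from 15th (FOCAD) to 230th (CDKN2A, NM_058197) from the top. The middle 50% of all probes lay between -0.68 and 0.39, with a median of -0.05. As a guide to technical spread, 999 probes had 8 spots or more, and the spots of such a probe had an SD of the log2 difference with a median of 0.077 and a 95th percentile of 0.80. Each member probe was a single spot, so no such value exists for the members themselves.

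**Figure D2:**
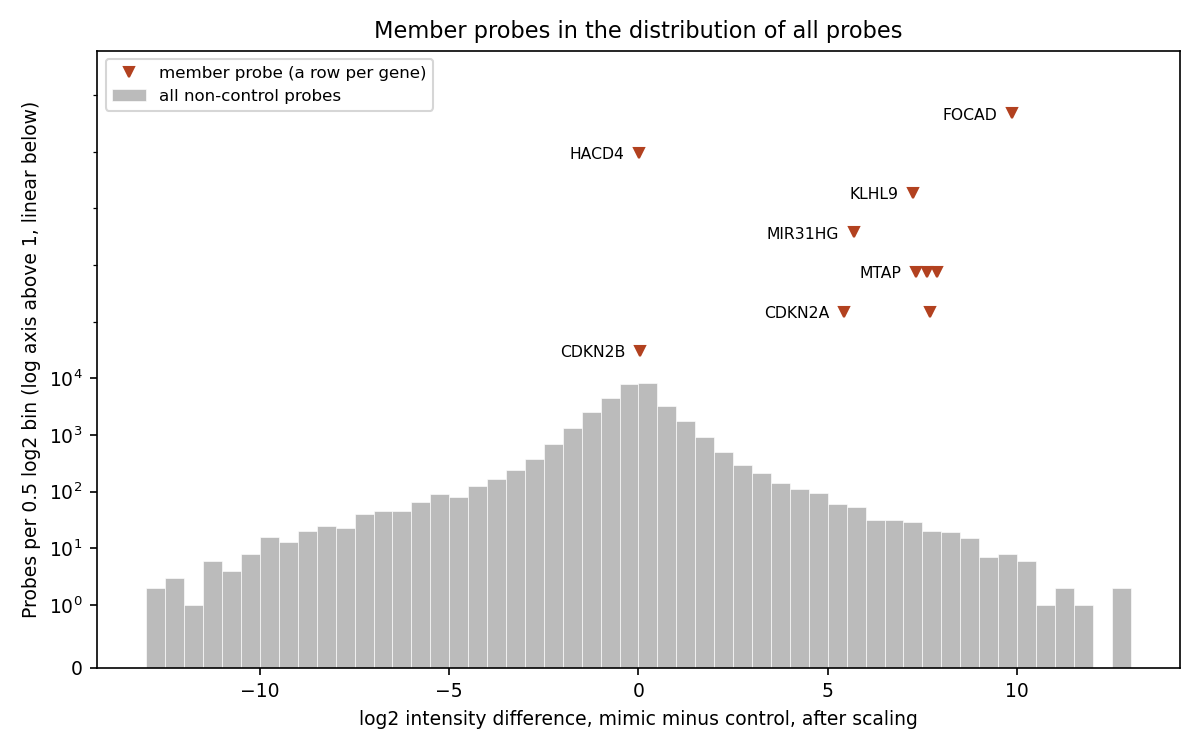
Number of non-control probes per bin of log2 difference, mimic minus control, after scaling (bars, log axis above 1), with the 10 member probes marked in a row per gene, whose height carries no value. The 8 probes of FOCAD, KLHL9, MIR31HG, MTAP and CDKN2A lie between 5.44 and 9.87, and the probes of HACD4 and CDKN2B, at background on both arrays, have no interpretable difference.

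The genes on either side were examined to see how far the pattern reached. On the telomeric side, from PSIP1 to MLLT3, 27 probes read 14 genes. Of these, 0 of 27 reached a 10-fold higher value with the mimic, against 2.06% of all probes, so that a count of 0 is near the background. Of the 12 probes there with a scaled intensity of at least 100 on an array, 2 were at least 2-fold higher and 2 at least 2-fold lower, against 12.7% and 17.4% of all probes, and the highest fold was 2.40. RPS6, a ribosomal protein gene with 10 spots, had 187600 to 254075 (median 211558) on the mimic array and 96477 to 114500 (median 100256) on the control array. Its scaled log2 difference was 0.45 ± 0.10 (SD over 10 spots of the same arrays). ACER2, a ceramidase, had 1414 against 930 at its brighter probe, level after scaling (log2 difference -0.01). SLC24A2, a cation exchanger with 10 spots, was dim, with a median of 90.8 against 66.0. MLLT3, a transcription elongation factor subunit and the nearest measured listed gene to FOCAD, had 239 against 69.7 at 1 probe and 48.0 against 86.9 at the other, so that its probes disagreed in direction.

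On the centromeric side, from DMRTA1 to C9orf72, 18 probes read 12 genes, and again 0 of 18 were at least 10-fold higher, against 2.06% of all probes, so that a count of 0 is near the background. At 2-fold, 8 of 18 were lower and 1 higher, against 17.4% and 12.7% of all probes. Of the 6 with a scaled intensity of at least 100 on an array, 4 were lower and 0 higher. Some of the lower probes were at background on the mimic array, such as LRRC19 (5.33 against 19.0) and TEK (5.87 against 37.7). Others read the same gene, PLAA. DMRTA1, a transcription factor gene and the nearest to CDKN2B, had 78.5 on the mimic array against 31.1 in the control. ELAVL2, which encodes a neuronal RNA-binding protein, was near background on both arrays, with 9.88 on the mimic array. The probes of TUSC1 disagreed: the one in the authors' table had 197 against 154, and the other 9.75 against 733, where the mimic reading is under the 99th percentile of the negative-control spots. CAAP1, an apoptosis inhibitor gene, had 1946 against 2769, a log2 difference of -1.12. Among the listed genes measured, 10-fold higher values were found from FOCAD to CDKN2A, a stretch chosen for its levels. With counts near the background on either side, these values do not set where the pattern ends.

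**Figure D3:**
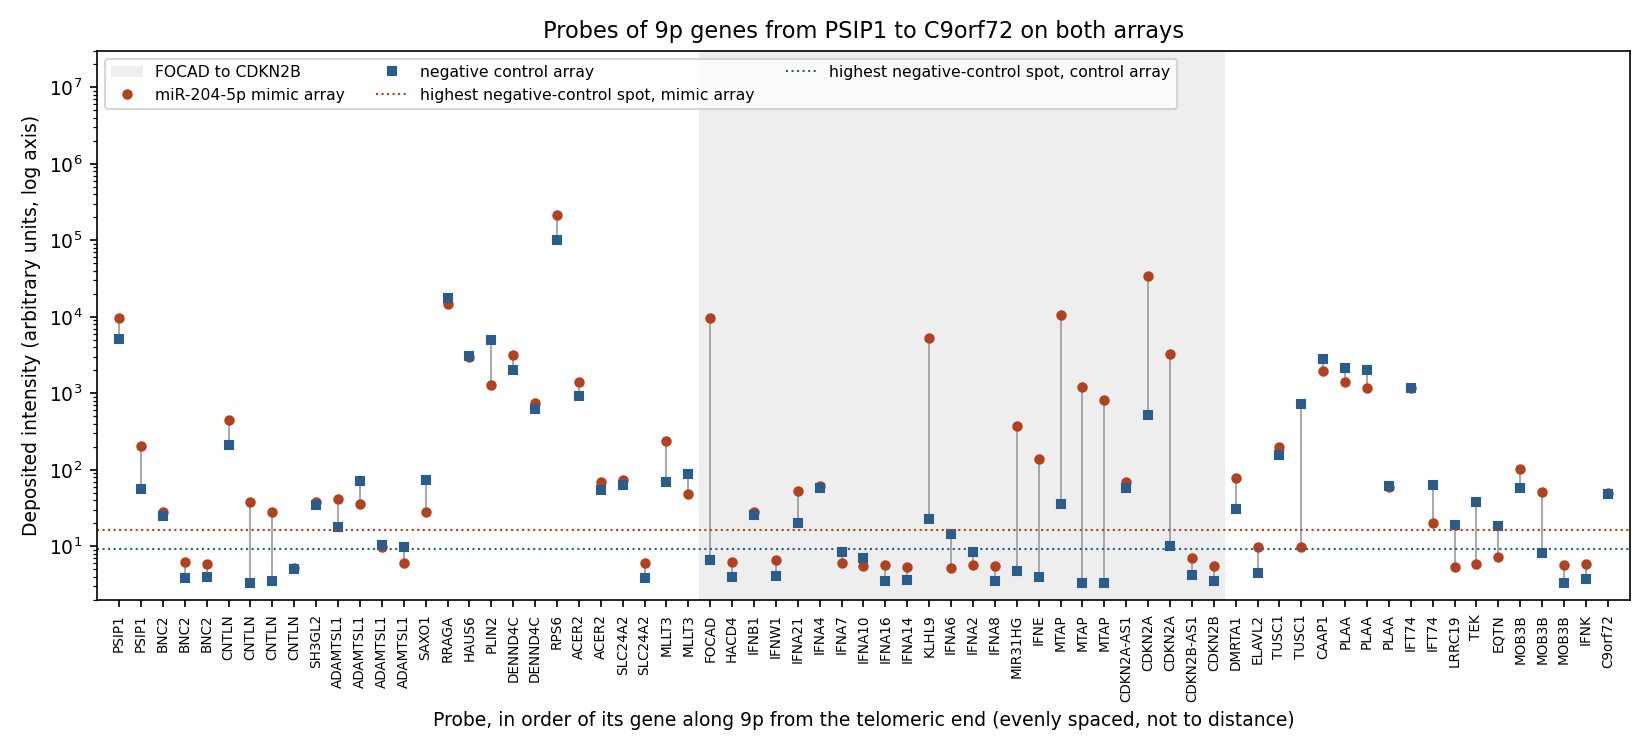
Deposited intensity (arbitrary units, log axis) of 69 probes of listed 9p genes from PSIP1 to C9orf72 on the mimic array (circles) and the control array (squares), evenly spaced in gene order, with a line joining the readings of a probe and dotted lines at the highest negative-control spot of each array. Inside the shaded stretch from FOCAD to CDKN2B the longest lines belong to FOCAD, KLHL9, MIR31HG, IFNE, MTAP and CDKN2A, with the mimic array on top, whereas RPS6, ACER2 and CAAP1 outside it are bright on both.

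The genes that lie between the members were mostly dim. Of 12 measured type I interferon genes of the cluster, which are normally silent until a cell senses virus or foreign RNA, 11 had intensities from 5.27 to 61.3 (median 5.72) on the mimic array and from 3.50 to 57.9 (median 8.33) on the control array. At 2-fold, none of these 11 was higher on the mimic array, and IFNA7, IFNA6 and IFNA2, 3 in all, were lower, against 12.7% and 17.4% of all probes, each with a mimic value under the 95th percentile of the negative-control spots. Some interferon alpha genes are near-identical, so a probe may read more than the gene it is named for. The exception was IFNE, an interferon constitutively made in some epithelia, with 140 on the mimic array against 3.93 on the control array, at least 5.37-fold higher. CDKN2A-AS1, named as an antisense RNA of CDKN2A, had 69.2 against 57.3 and did not share the pattern of that gene. At a dim gene neither array shows whether its level differed.

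The stretch was set beside runs of neighbouring genes on all autosomes and the X chromosome. By the limit set at the outset, a gene above the 95th percentile of the negative-control spots on the mimic array and not on the control array, 368 of 20139 genes qualified and no run reached 3 genes, here or elsewhere, since FOCAD, KLHL9, MIR31HG, MTAP and CDKN2A each had a control reading above that limit. A definition chosen after the values were seen took the brightest probe of the 13949 genes with a scaled intensity of at least 100 on an array and asked for a 10-fold difference. By it FOCAD, KLHL9, MIR31HG, IFNE, MTAP and CDKN2A formed a run of 6. Of these, FOCAD, KLHL9, MIR31HG, IFNE and MTAP passed the intensity limit through the mimic array alone, and the limit left out HACD4, CDKN2A-AS1 and the 11 other interferon genes that lie between them, so the run is a description. Beside it, the other 5 runs of at least 3 higher genes held 3 to 5 genes, among them HOXB4 to HOXB8, KLK5 to KLK8, HOXA5 to HOXA9 and HOXA11 to HOXA13. In the opposite direction there were 16 runs of at least 3 genes, the longest with 5, and some of them, such as ANTXR2 to FGF5, also join genes of different families. With both levels raised to the lowest intensity of the authors' table, IFNE dropped out and the 9p21 run ended at MIR31HG, with 3 genes, so its length depends on how dim control readings are treated.

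The pathways that these genes serve were described next, over genes of the authors' table, at 1.5-fold and with levels as scaled intensity unless stated. Of all 14934 genes there, 23.5% reached this in favour of the mimic array and 24.7% the reverse, with a median log2 difference of -0.05. Around MTAP, 19 genes of methionine salvage, polyamine synthesis and the PRMT5 complex, which methylthioadenosine is known to inhibit, were measured. Of these 3 were higher and 3 lower, with a median of 0.20. The aminotransferase GOT1 had a scaled intensity of 45638 on the mimic array against 17136 in the control, 2.66-fold higher, and AHCY, the hydrolase of S-adenosylhomocysteine, had 2773 against 1213. ADI1, a dioxygenase of the salvage pathway, was 1.86-fold lower, and AMD1, which makes the aminopropyl donor of polyamine synthesis, 1.69-fold lower. PRMT5 itself had 3355 against 3258, with probes that disagreed in direction. No gene of the list came near the differences of MTAP.

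Of 16 genes on which p16INK4a and p15INK4b act or that act beside them, 3 were higher and 6 lower, with a median of -0.30. CDKN2C, a further INK4 inhibitor (p18), was 4.71-fold lower, at 408 on the mimic array against 1921 on the control array, but its probe was a recomputed one. CDKN1A, the inhibitor p21, had 579 against 151 and was 3.84-fold higher. The transcription factor gene E2F2 was 3.33-fold higher and the cyclin D1 gene CCND1 2.79-fold higher. The kinase genes bound by p16INK4a were bright on both arrays, with 15656 against 24005 for CDK4 and 5435 against 14419 for CDK6. RB1 itself had 6809 against 8772, a log2 difference of -0.37.

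Of 9 measured genes of the ARF and MDM2 axis, 6 were higher and 1 lower, with a median of 1.89. The higher ones included the mitochondrial reductase gene FDXR (14336 against 982), PHLDA3 (418 against 42.5), the BH3-only gene BBC3 (9037 against 2207) and CDKN1A. MDM2, the ligase that p14ARF restrains, had 385 against 241, a log2 difference of 0.67, and its relative MDM4 had 133 against 256, a difference of -0.95. FDXR, PHLDA3, BBC3 and CDKN1A were listed with their values on these arrays known, so the count of this list is no independent evidence.

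**Figure D4:**
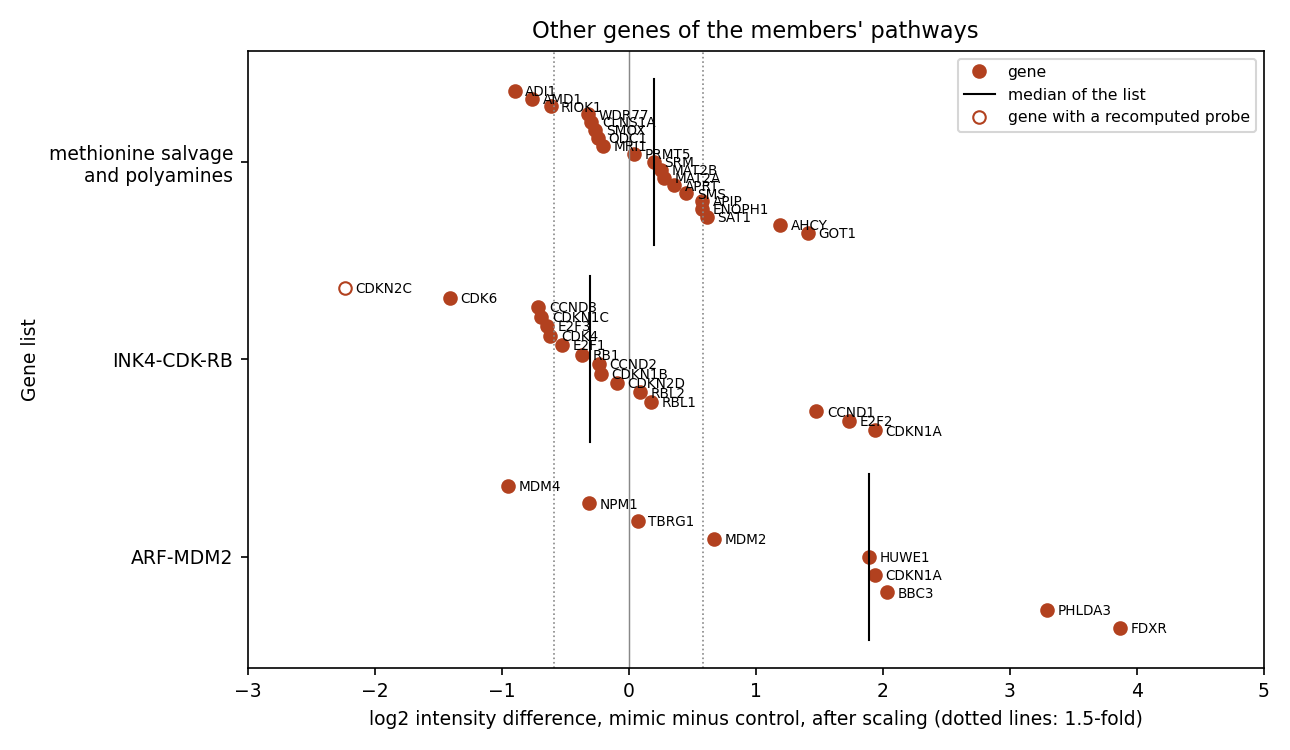
Log2 difference of scaled intensity, mimic minus control, for each gene of 3 lists in the authors' table (points), with the median of each list (vertical line) and 1.5-fold limits (dotted). In the INK4-CDK-RB list 3 genes lie above and 6 below these limits, CDKN2C (open point, recomputed probe) lowest, and FDXR and PHLDA3 of the ARF-MDM2 list lie highest, at 3.87 and 3.30.

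The direction at the 5 bright member genes, which were chosen for their levels, was the same in each setting tried. Averaged over a gene's probes, the log2 difference was 9.87 for FOCAD, 7.26 for KLHL9, 5.69 for MIR31HG, 7.61 for MTAP and 6.57 for CDKN2A, sizes that rest partly on control readings at or near background. Over the alternatives it lay between 7.28 and 10.48 for FOCAD, 6.01 and 7.87 for KLHL9, 2.75 and 6.30 for MIR31HG, 4.98 and 8.54 for MTAP and 5.44 and 7.18 for CDKN2A. The low ends for FOCAD, KLHL9, MIR31HG and MTAP came from normexp with an offset of 50, which lifts dim values, and that of CDKN2A from its brightest probe.

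**Figure D5:**
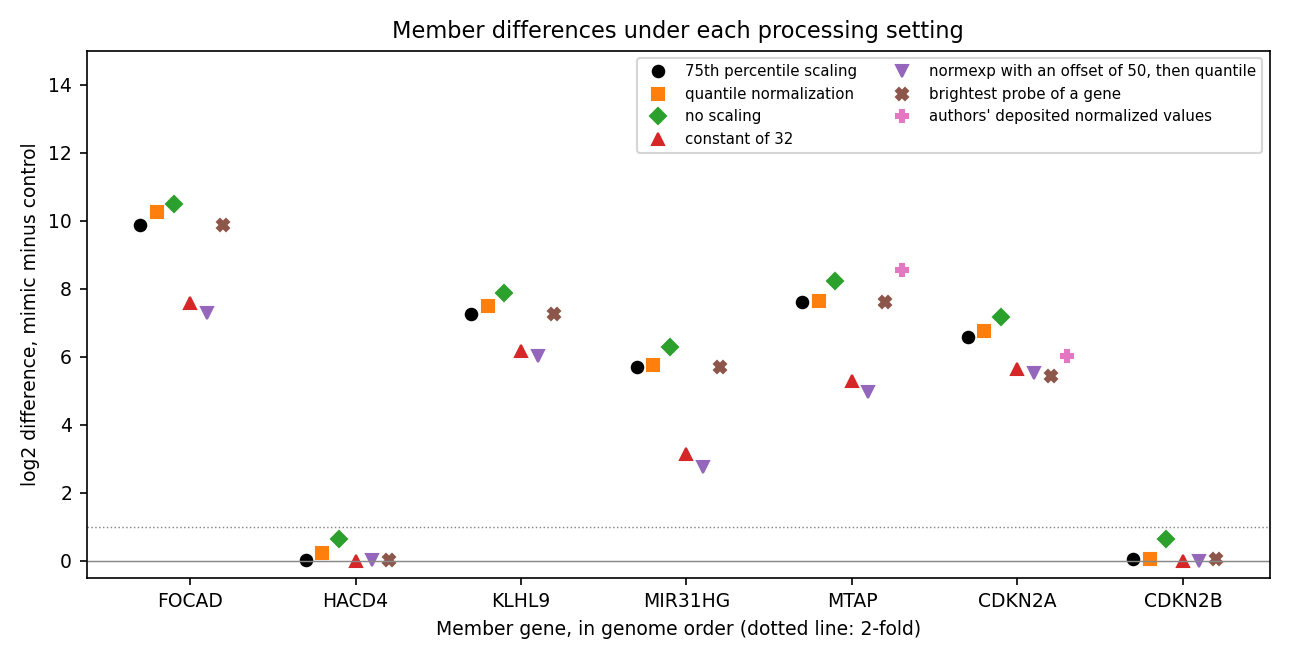
Log2 difference, mimic minus control, of each member gene (mean over its probes) with 75th percentile scaling and under each alternative, with 2-fold dotted. FOCAD, KLHL9, MIR31HG, MTAP and CDKN2A lie above 2-fold throughout, the lowest value being 2.75 for MIR31HG, and the values of HACD4 and CDKN2B set background against background.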

How the data were processed

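Cy3-labelled RNA was hybridised to 1 array per condition, and the submitters' processing notes name Agilent Feature Extraction 9.1 for the image analysis. Each deposited scanner file gives a linear intensity per spot, not normalized between arrays. The authors' deposited table gives raw intensity, normalized values on the log2 scale and a linear fold (ratio) for 20291 probes flagged as detected in 5 of 5 samples, per the file headers, of which 3 are not analysed here. The series value table repeats those log2 values, medians 9.81 (mimic) and 9.21 (control). The sources used here do not give the genome build, the exported column or how values were normalized.

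Some deposited values are not plain measurements. Of 44493 mimic spots, 95.5% were 1.2 times a number of 7 digits, a factor held by 10 of 10 member spots. Scaling removes it from the folds of spots that hold it, but not from intensities given as deposited. For 1366 table probes the raw mimic intensity equalled control times fold within a relative tolerance of 1e-06. These are the recomputed probes, and no member probe was among them.

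Log2 intensities of a probe's spots were averaged (Python 3.11.15, pandas 2.3.3) and scaled to each array's 75th percentile, 1364 (mimic) and 894 (control). Probes were named by Entrez identifier (17578), accession (8865) or the file's symbol (677) through RefSeq (GRCh38.p14), and 7007 stayed unnamed. Described by name were all members, at most 4 measured listed 9p genes a side, the interferon genes as a group, and the 4 largest differences per pathway list. Genes with levels like those of MTAP were sought but are not reported, since levels of different probes are not comparable. GOT1 to AMD1, CDKN2C to CCND1 and FDXR to CDKN1A are those 4 of each list, and CDK4, CDK6, RB1, PRMT5, MDM2 and MDM4 were added after their values were seen, for their roles. Members and lists were chosen with earlier results of these data known. Alternatives used quantile normalization, a constant of 32, and normexp with limma 3.58.1 in R 4.3.3. Some items that these rules name are not reported here. Scaling and the search for runs were tested on simulated data, with few changed probes, as many up as down. On these arrays 12.7% of probes were at least 2-fold higher and 17.4% lower. That simulation therefore does not show how scaling performs here. With 1 array per group, the number of arrays limits the precision.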

Additional observations from a re-analysis of the deposited data

How the results depend on the processing

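No paired analysis was possible because each group had 1 array. The count of member genes at least 2-fold higher was 5 of 7, against 13.9% of the genes of the authors' table. It was the same with quantile normalization, no scaling, a constant of 32, normexp and the brightest probe. The members were chosen for differences far larger than these settings move, so the unchanged count is no support. Of 10 member probes, 2 were above background on the mimic array alone at the 95th percentile of the negative-control spots, 3 at the 99th percentile and 4 against the highest spot. Against the lowest intensity of the authors' table, chosen after the data were seen, 5 were, and 3 were above on the control array in place of 6. Runs of at least 3 genes numbered 0 by the planned limit and 1 against the highest spot, on chromosome 3, and 6 by the 10-fold definition, or 4 with levels raised to the table's lowest intensity.

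Among all table genes, 2082 were at least 2-fold higher and 2135 lower. The deposited normalized values, whose median over all genes is 0.58, gave 4616 and 1022, so that 81.9% of called genes were higher in place of 49.4%. A 3-fold threshold gave 1002 and 1061. All non-control probes, which cover 20830 genes in place of 14934, gave 2941 higher and 3472 lower genes at 2-fold. With the deposited values, genes at least 1.5-fold higher and lower numbered 11 and 0 for methionine salvage, 8 and 2 for INK4-CDK-RB, and 7 and 0 for the ARF-MDM2 list. The median of 0.58 over all genes lies next to this 1.5-fold limit, so a large part of all genes was also near or past it. The share over all genes was not computed for this setting, so its counts are no result about the lists. With the deposited values less their median, the numbers higher and lower were 5 and 3, 3 and 4, and 6 and 1 for the same lists. Without recomputed probes, 3 and 5 INK4-CDK-RB genes were higher and lower. Dim control readings limit the folds given as bounds, and single spots allow no spot error.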

Other observations

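Within the listed 9p genes, some dim probes outside the stretch also differed between arrays. A pair of CNTLN probes (a centriolar protein) had 37.7 and 28.3 on the mimic array against 3.36 and 3.48 on the control array, while the CNTLN probe in the authors' table had 448 against 213. MOB3B, a kinase activator gene, had 52.0 against 8.14 at 1 probe and 102 against 58.6 at another. TEK, an endothelial receptor, had 5.87 against 37.7. PLIN2, which coats lipid droplets, was 5.83-fold lower from a recomputed probe. These genes were picked after their values were seen.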
